A study of Mus musculus with 6 samples.

Results

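Of the 7320 genes in the table that compared KMF with ID8 tumorspheres, 62 were protein-coding ribosomal protein genes. They were chosen by symbol alone. Symbols that open with Rpl, Rplp or Rps and a number, together with Rpsa, gave 40 cytosolic genes (25 of the large and 15 of the small subunit), with the S6 kinase genes left out. Symbols that open with Mrpl or Mrps and a number gave 22 mitochondrial genes (13 of the large and 9 of the small subunit).

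ID8 is a cell line of C57Bl6 mouse ovarian epithelium that became immortal in culture with no engineered change and goes back to 1 clone. KMF (ID8-IP in the column names) is its derivative after a passage in C57Bl6 hosts, grown out in suspension from cells of the abdominal fluid. Both lines were untreated and grew for 5 days as tumorspheres in 3D PromoCell XF medium, and RNA was sequenced from 3 cultures of each, at passages 23, 24 and 35 for ID8 and 14, 17 and 22 for KMF. Each line is a single isolate, so the p-values measure the spread between cultures of 1 line, and line identity, passage range and time in the mouse cannot be told apart. In these bulk samples, fewer cells of a type and less RNA per cell cannot be told apart either.

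The cytosolic ribosome translates the messages of nuclear genes. Its small subunit reads the mRNA, its large subunit joins the amino acids, and its proteins are made from some of the most abundant, co-regulated mRNAs of a growing cell. The mitochondrial ribosome is a separate particle whose proteins are also encoded in the nucleus but are imported into mitochondria, where it makes a few core subunits of the respiratory chain and of ATP synthase. Many mitochondrial ribosomal proteins descend from bacterial ones, and others exist only in mitochondria.

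The table is a selection, which limits every count below. It holds only genes that passed the authors' own test on the same 6 libraries, and 17359 genes had entered that test. By the same symbol rule the mouse annotation (GENCODE M21) has 92 cytosolic and 78 mitochondrial genes, so 43.5% and 28.2% of them were listed, and the others were not analysed here. Library totals ran from 23108407 to 33212313 fragments on genes, of which the listed genes held 52.8% to 55.9%. A count of 3 fragments, the floor used for detection, equals 0.0903 to 0.13 CPM, counts scaled to the library total, far below every member. Of 17 markers of cell types fixed for this check, 8 were listed. Of the mesothelial markers, Wt1 went from a mean of 108 FPKM (fragments per kilobase of gene, scaled to the library total) in ID8 to 77.3 in KMF and Upk3b from 25.3 to 1.70, while Msln went from 34.3 to 91.6. The fibroblast markers Dcn and Col1a1 went from 66.5 to 14.3 and from 3.92 to 0.607 FPKM. The epithelial markers Epcam, Cdh1 and Krt7 were at or under 8.61 FPKM on average in either line, and no leukocyte or endothelial marker was listed. Of the 8, 7 were lower in KMF and Msln was higher (edgeR, adjusted p under 0.05), and their part in the values below was not tested.

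Cytosolic ribosomal protein mRNAs were mostly higher in KMF by a small and similar factor, whereas mitochondrial ones split in both directions. Of the 40 cytosolic genes, 32 passed the test as higher in KMF (edgeR quasi-likelihood test, adjusted p under 0.05), 1 as lower and 7 in neither direction. In the same test 45.4% of the 6967 listed genes that could be fitted were higher and 47.5% lower, 92.9% in all, because the table had been selected. Of the 22 mitochondrial genes, 6 passed as higher, 10 as lower and 6 in neither direction. The fitted value lay above 0 for 39 of 40 cytosolic and for 11 of 22 mitochondrial genes, beside 49.8% of all fitted genes. All 62 members passed the filter on low counts.

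The changes were small. The median log2 fold change (KMF over ID8) was 0.31 for the cytosolic genes, or 24.0% more RNA, with a standard deviation between genes of 0.15 and a highest value of 0.62. The mitochondrial genes had a median of -0.02 with a standard deviation of 0.44 and a range from -0.65 to 0.50, and the median of all fitted genes was -0.23. None of the 62 changed by 2-fold, a size that 40.5% of the fitted genes reached with a passed test. The median size of change, sign aside, was 0.32 for the members and 0.79 for all fitted genes. These sizes were not matched for level, which had a median of 255.5 FPKM for the members and 9.93 FPKM for all fitted genes. Because the table was selected by a test, the size a gene needed to be listed could differ with its level.

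**Figure D1:**
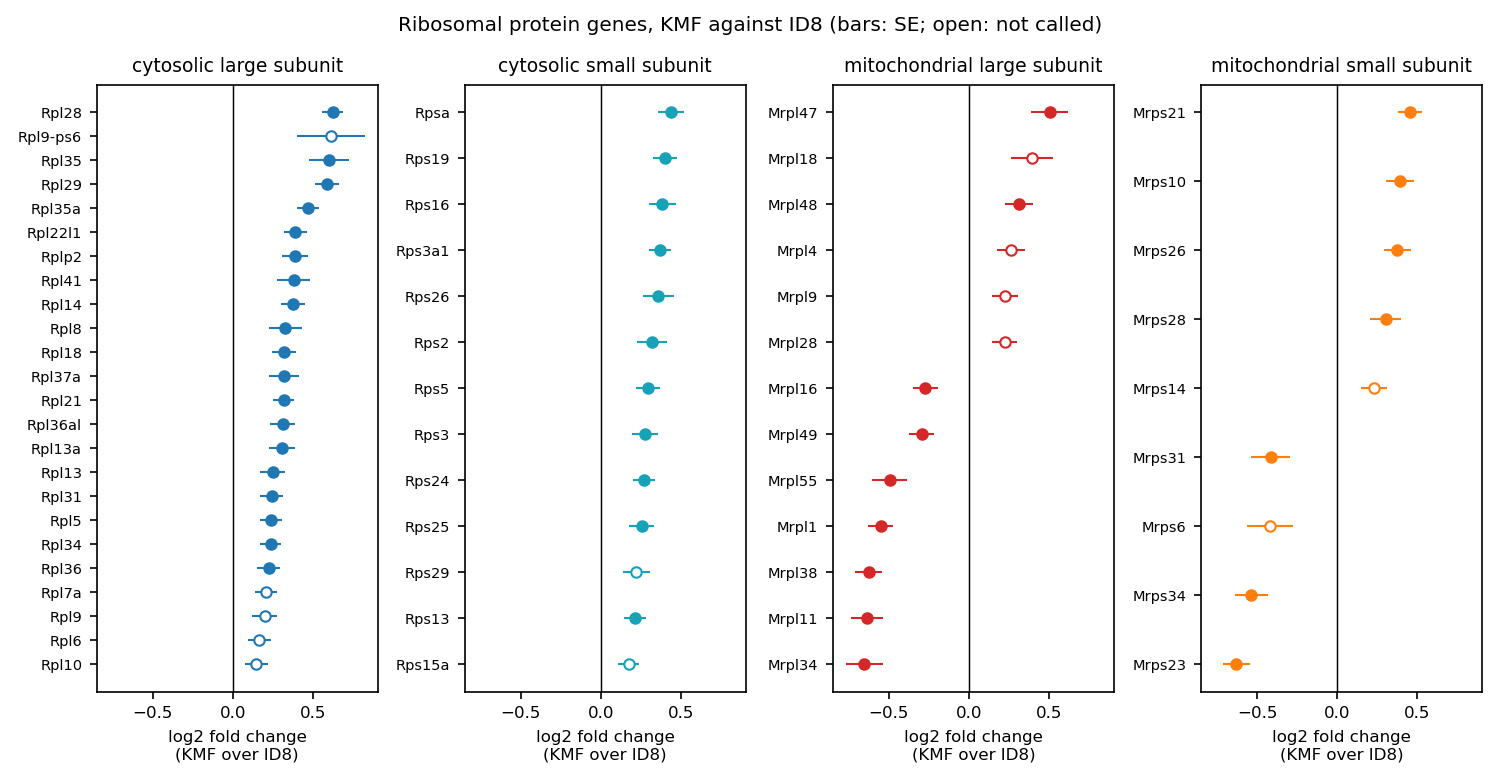
Log2 fold change of 59 of the 62 ribosomal protein genes (KMF over ID8, horizontal axis), in 4 panels by ribosome and subunit, with bars for the standard error of the edgeR fit and open circles for genes that did not pass the test. The 37 cytosolic genes drawn lie between 0.15 and 0.62, and the mitochondrial points lie on both sides of 0 from -0.65 to 0.50.

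The libraries of the lines rarely overlapped. In CPM, all 3 KMF libraries stood above all 3 ID8 libraries for 38 of the 40 cytosolic genes and below them for 1, and only Rps29 overlapped. For the mitochondrial genes the groups did not overlap in any of 22 cases, 11 with KMF above and 11 with KMF below. Among all fitted genes KMF stood above ID8 in 47.4% and below it in 49.2%. A lack of overlap was thus common across this selected table and is not particular to the members.

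**Figure D2:**
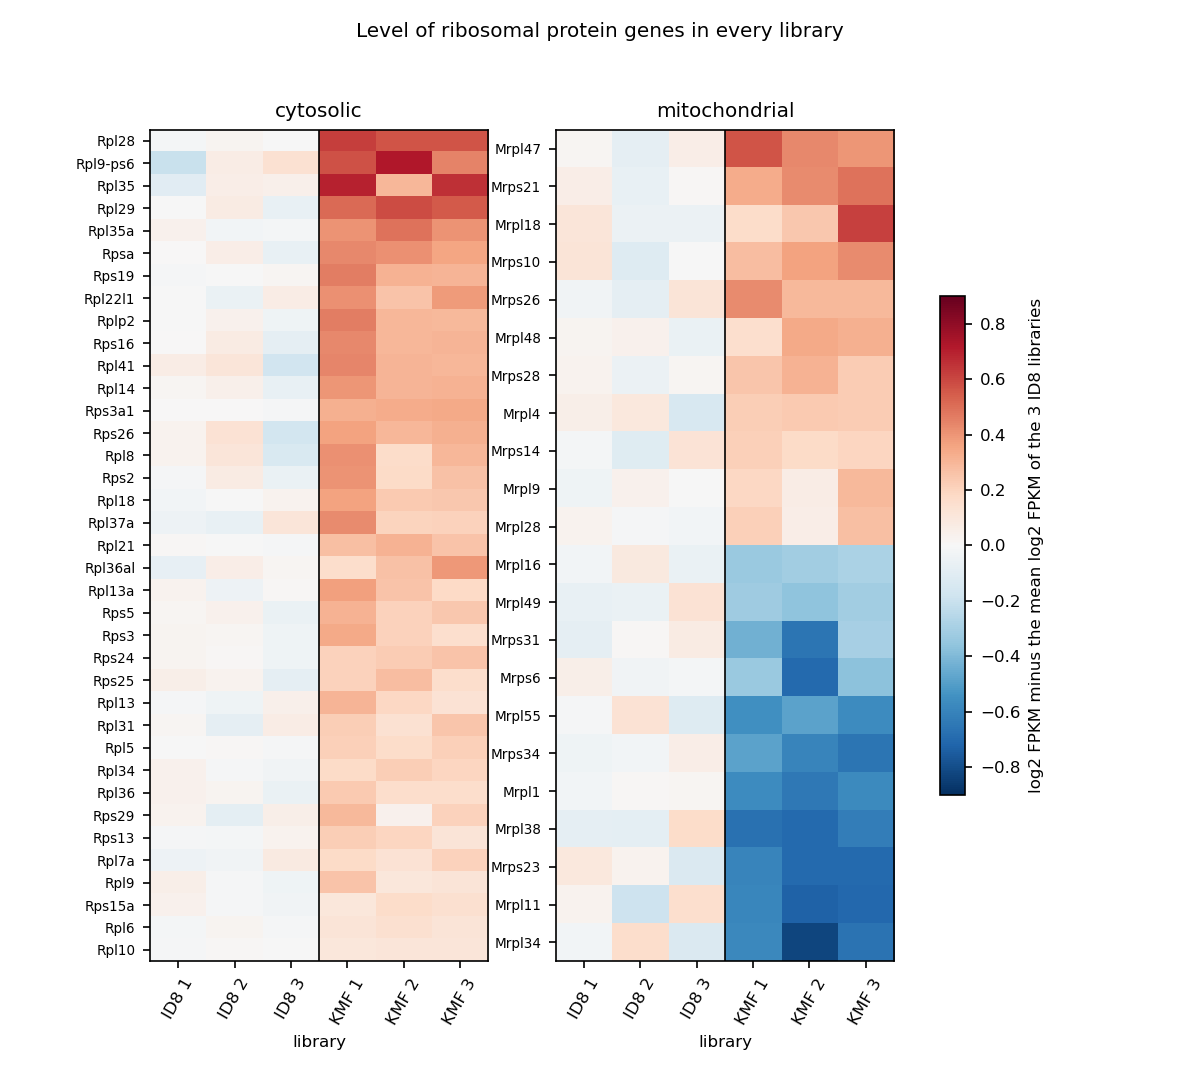
Level of 59 of the 62 members in each of the 6 libraries, as log2 FPKM minus the mean log2 FPKM of the 3 ID8 libraries (colour scale, red higher and blue lower), with genes ordered by fold change. The 3 KMF columns are red for the 37 cytosolic genes drawn, and they divide into 11 red and 11 blue rows for the mitochondrial genes.

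In the cytosolic large subunit, 19 of 25 genes were higher in KMF, 1 was lower and the median log2 fold change was 0.32. Rpl28 (mm10 as in the table, like the other gene positions, chr7:4792874-4794562, plus strand) had the largest increase among all 62. It measured 561, 576 and 566 FPKM in the ID8 libraries and 872, 841 and 841 FPKM in the KMF libraries. The groups were far apart beside the spread within each. The fitted difference, KMF minus ID8 with the standard error of the fit (as for all differences below), was 0.62 ± 0.07 log2 units, at an edgeR adjusted p of 0.000285. Rpl29 (chr9:106429454-106431568, plus strand), a large subunit protein also known to bind heparin, measured 505, 533 and 483 FPKM in ID8 against 723, 761 and 743 FPKM in KMF. Every KMF culture was again higher, and the difference was 0.59 ± 0.07 log2 units with an edgeR adjusted p of 0.000604.

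Rpl35 (chr2:39001580-39005624, minus strand) encodes a protein beside the tunnel through which the nascent chain leaves the ribosome. It was the least abundant but one of the cytosolic members, between 26.2 and 29.3 FPKM in the ID8 libraries and at 45.5, 34.7 and 44.4 FPKM in the KMF libraries. The second KMF culture was lower than the other KMF cultures but still above every ID8 culture, and the difference was 0.60 ± 0.12 log2 units (edgeR adjusted p = 0.00638). Its count is uncertain, since 67.0% of the 150-base windows along its transcripts also occur in transcripts of another annotated gene, most of them in Wdr38, which lies across it on the opposite strand. Rpl35a, a gene mutated in some cases of Diamond-Blackfan anaemia, came next among the genes that passed, with a difference of 0.47 ± 0.07 log2 units (edgeR adjusted p = 0.00106) and 88.9, 84.96 and 85.2 FPKM in ID8 against 114, 121 and 114 FPKM in KMF.

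Where the data bear on start sites, the sequence around them is of interest, because cytosolic ribosomal protein mRNAs are known to begin with a C followed by an unbroken run of pyrimidines (the TOP motif), through which their translation is controlled by mTORC1. RefSeq promoter windows of GRCm38.p6, each with 250 bases before the annotated start and 50 from it on, matched 30 cytosolic and 18 mitochondrial members. A C at the first base followed by at least 4 bases that are each C or T was present in 6 of the 30 cytosolic and in 0 of the 18 mitochondrial windows, and in 3.01% of the windows of all 27025 genes. The match depends on the exact start base that RefSeq gives, so a missing match says only that these letters do not follow that base. The 6 cytosolic starts are printed to show where the pyrimidine run lies, with 10 bases before the start and 20 from it on, and with the C and the pyrimidine run in capitals:
Rpl28 (chr7:4792955-4792984, plus strand): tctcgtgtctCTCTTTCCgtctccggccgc
Rpl35 (chr2:39005112-39005141, minus strand): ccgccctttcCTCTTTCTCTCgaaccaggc
Rpl35a (chr16:33056472-33056501, plus strand): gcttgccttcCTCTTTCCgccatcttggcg
Rplp2 (chr7:141447641-141447670, plus strand): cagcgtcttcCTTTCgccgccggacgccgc
Rpl14 (chr9:120571507-120571536, plus strand): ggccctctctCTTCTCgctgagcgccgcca
Rps15a (chr7:118116128-118116157, minus strand): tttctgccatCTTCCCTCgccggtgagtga
The first 5 of these 6 genes were higher in KMF, beside 32 of all 40 cytosolic members. Rps15a, with a run of the same kind, had the smallest change of the small subunit and did not pass, at 0.17 ± 0.07 log2 units (edgeR adjusted p = 0.0748). The runs are 5 to 11 bases long including the C.

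Both listed genes of the list made of the stalk proteins and the laminin receptor were higher. Rplp2 is an acidic protein of the flexible stalk that recruits elongation factors, and it measured 472, 486 and 460.2 FPKM in ID8 against 651, 581 and 579 FPKM in KMF. The KMF libraries lay above the ID8 libraries throughout, and the difference was 0.39 ± 0.08 log2 units (edgeR adjusted p = 0.00633). Rpsa, a small subunit protein that has also been studied as a laminin receptor, measured 679, 705 and 646 FPKM in ID8 against 914, 901 and 867 FPKM in KMF. Its difference of 0.44 ± 0.08 log2 units was the largest of the small subunit (edgeR adjusted p = 0.00353). Of the 10 genes fixed as paralogs of ribosomal proteins, 2 were listed and both were higher in KMF. Rpl22l1, the paralog of Rpl22, measured 180.1, 173 and 188 FPKM in ID8 against 239.9, 216 and 235 FPKM in KMF, with a difference of 0.39 ± 0.07 log2 units (edgeR adjusted p = 0.00350). Rpl36al, the paralog of Rpl36a, had a smaller one of 0.31 ± 0.08 log2 units (edgeR adjusted p = 0.0178).

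The most abundant large subunit genes had moderate or small changes. Rpl10, which joins the particle late in its maturation, had the highest mean FPKM of the large subunit together with Rpl8, at 1247, 1268 and 1252 FPKM in ID8 against 1350.2, 1356 and 1354 FPKM in KMF. The groups did not overlap, yet its difference of 0.15 ± 0.07 log2 units did not pass the test (edgeR adjusted p = 0.165). Rpl8, which lies near the peptidyl transferase centre, measured 1241, 1308 and 1107 FPKM in ID8 against 1615, 1359.9 and 1495 FPKM in KMF and passed at 0.33 ± 0.10 log2 units (edgeR adjusted p = 0.0390). Rpl36 and Rpl34, at 0.22 and 0.24, had the smallest positive changes that passed. Rpl6, Rpl9 and Rpl7a, at 0.17, 0.20 and 0.21, did not pass, with edgeR adjusted p of 0.121, 0.0887 and 0.0512.

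Rpl9-ps6 is named as a processed copy of Rpl9 although the table lists it as protein-coding. It was the least abundant cytosolic member, at 3.34, 4.02 and 4.23 FPKM in ID8 against 5.71, 6.33 and 5.23 FPKM in KMF. Its difference of 0.61 ± 0.21 log2 units did not pass (edgeR adjusted p = 0.0548), and 69.6% of its windows also occur in other transcripts, most in Rpl9, whose own log2 fold change was 0.20. Among non-coding rows named after ribosomal protein genes, Rps16-ps2 was higher (log2 fold change 0.52, edgeR adjusted p = 0.0471) from 12.7 ± 1.03 to 17.7 ± 2.30 FPKM (SD of 3 cultures), and Rpl37rt had a log2 fold change of 0.44 that did not pass (edgeR adjusted p = 0.0789).

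In the cytosolic small subunit, 13 of 15 genes were higher in KMF and none was lower, with a median log2 fold change of 0.27 and a standard deviation between genes of only 0.08. After Rpsa came Rps19, a gene often mutated in Diamond-Blackfan anaemia, at 150.3, 151 and 153 FPKM in ID8 against 209, 188 and 187 FPKM in KMF. Its difference was 0.40 ± 0.08 log2 units (edgeR adjusted p = 0.00392). Rps16, whose tail reaches the tRNA between the subunits, followed with 0.38 ± 0.08 log2 units (edgeR adjusted p = 0.00774). Rps26 and Rps2, which line the channel of the mRNA, were the most abundant members of all. Rps26 measured 1411, 1506 and 1232 FPKM in ID8 against 1774, 1692 and 1717 FPKM in KMF, a difference of 0.36 ± 0.10 log2 units (edgeR adjusted p = 0.0196). Rps2 measured 1274, 1352 and 1229 FPKM in ID8 against 1701, 1447 and 1543 FPKM in KMF, a difference of 0.32 ± 0.09 log2 units (edgeR adjusted p = 0.0287). For both, the lowest KMF library was above the highest ID8 library.

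Rps13 had the smallest change that passed in the small subunit, with a log2 fold change of 0.22. Rps29 was the exception in the spread of its libraries, with 599, 551 and 608 FPKM in ID8 against 716, 602 and 675 FPKM in KMF. The second KMF culture fell below the highest ID8 culture, and the difference of 0.22 ± 0.08 log2 units did not pass (edgeR adjusted p = 0.0776).

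The 14 cytosolic genes with at most 10% of their windows in another gene's transcripts gave shares close to those of the other 26. Of the 14, 12 were higher, none was lower and the median log2 fold change was 0.31, and of the 26, 20 were higher, 1 was lower and the median was 0.31 too. Beside this, 6 members had over 50% of their windows in common with another gene (Rpl5, Rpl13, Rpl9-ps6, Rpl35, Rpl7a and Rpl10), so their counts are uncertain where a read could be given to either gene. Of all 62, 16 overlap another protein-coding gene in the genome, 12 of them on the opposite strand. Whether counting used strand is not given in the sources used here.

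In the mitochondrial large subunit, 7 of 13 genes were lower in KMF and 2 were higher, and the median log2 fold change was -0.27. Mrpl34 (chr8:71464926-71465752, plus strand) had the largest decrease among all members. It measured 61.2, 69.4 and 56.8 FPKM in the ID8 libraries and 41.5, 35.2 and 39.2 FPKM in the KMF libraries. The highest KMF library stayed well below the lowest ID8 library, and the difference was -0.65 ± 0.12 log2 units (edgeR adjusted p = 0.00316). Mrpl38, a protein with no bacterial counterpart, measured 63.0, 62.6 and 74.5 FPKM in ID8 against 41.8, 40.9 and 43.2 FPKM in KMF, a difference of -0.63 ± 0.08 log2 units (edgeR adjusted p = 0.000777). Mrpl38 and Mrpl34 were also the most abundant of the subunit.

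Further decreases concerned both bacterial-type and mitochondria-specific proteins. Mrpl11, at the base of the stalk, measured 22.1, 19.0 and 24.1 FPKM in ID8 against 14.4, 13.1 and 13.3 FPKM in KMF (-0.64 ± 0.10 log2 units, edgeR adjusted p = 0.00157). Mrpl1, of the mobile stalk near the tRNA exit, measured 11.9, 12.2 and 12.2 FPKM in ID8 against 8.19, 7.76 and 8.13 FPKM in KMF (-0.55 ± 0.08 log2 units, edgeR adjusted p = 0.00106). The libraries of each line were close together for Mrpl1 and more scattered in ID8 for Mrpl11. Mrpl55 and Mrpl49, both specific to mitochondria, fell by 0.50 and 0.30 on the log2 scale, and Mrpl16, the counterpart of cytosolic Rpl10, fell by 0.27.

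Both genes of this subunit that passed as higher were of low abundance. Mrpl47, the mitochondrial counterpart of Rpl35, measured 3.68, 3.42 and 3.79 FPKM in ID8 against 5.36, 4.89 and 4.79 FPKM in KMF. Like Rpl35 it was higher in every KMF culture, with a difference of 0.50 ± 0.12 log2 units (edgeR adjusted p = 0.0103). Mrpl48 rose by 0.31 (edgeR adjusted p = 0.0238), and 10.1% of its windows occur elsewhere. Mrpl18, Mrpl4, Mrpl9 and Mrpl28 had log2 fold changes of 0.39, 0.26, 0.23 and 0.22 that missed the threshold, with edgeR adjusted p between 0.0502 and 0.0615. For Mrpl18 the third KMF culture carried much of the difference, at 22.3, 19.9 and 19.9 FPKM in ID8 against 23.2, 24.5 and 31.7 FPKM in KMF.

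In the mitochondrial small subunit, 4 of 9 genes were higher, 3 were lower and the median log2 fold change was 0.23. Mrps23 (chr11:88204388-88211507, plus strand), specific to mitochondria, fell most. It measured 66.9, 64.0 and 57.4 FPKM in the ID8 libraries and 41.4, 38.6 and 38.5 FPKM in the KMF libraries. Its difference was -0.63 ± 0.09 log2 units (edgeR adjusted p = 0.000919). Mrps21 (chr3:95862634-95871519, minus strand), a protein of bacterial type, rose most and was the most abundant mitochondrial member, at 69.5, 63.6 and 67.2 FPKM in ID8 against 84.1, 89.8 and 93.7 FPKM in KMF. Its difference was 0.46 ± 0.07 log2 units (edgeR adjusted p = 0.00202), so the 2 leading genes of this subunit had similar levels in ID8 and moved apart in KMF.

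Mrps34, needed for stability of the small subunit, measured 14.4, 14.5 and 15.3 FPKM in ID8 against 10.6, 9.76 and 9.35 FPKM in KMF (-0.54 ± 0.10 log2 units, edgeR adjusted p = 0.00427). Of its windows, 46.2% occur in other transcripts, most in Mapk8ip3 on the opposite strand. Mrps31 fell by 0.42 on the log2 scale (edgeR adjusted p = 0.0282), and Mrps6 was at -0.42 without passing (edgeR adjusted p = 0.0530). Mrps10, Mrps26 and Mrps28 rose by 0.39, 0.38 and 0.30, and Mrps14, the counterpart of Rps29, was at 0.23 without passing (edgeR adjusted p = 0.0602).

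The sequence CCGGAAG, the core bound by ETS family factors, was found on either strand in 11 of 30 cytosolic windows (36.7%) and in 6 of 18 mitochondrial windows (33.3%), and in 9.93% of those of all genes. The 6 were Mrpl18, Mrpl34, Mrpl48, Mrps21, Mrps23 and Mrps26. The windows around the match are printed for 2 genes that rose and 2 that fell, with the match in capitals (CCGGAAG, or CTTCCGG where it lies on the other strand):
Mrps21 (chr3:95871478-95871507, minus strand): cgtagcttccgCTTCCGGtccgcagagacc
Mrps26 (chr2:130563732-130563761, plus strand): ctccgcggccaCTTCCGGgccgggcgcagg
Mrps23 (chr11:88204392-88204421, plus strand): tgccgcttccgCTTCCGGtaacagcccgag
Mrpl34 (chr8:71464878-71464907, plus strand): aactacagctcCCGGAAGgccccgcggcaa
Mrps21 and Mrps26 were higher in KMF and Mrps23 and Mrpl34 lower, and these 4 were picked to show both directions. Of all members with these letters, 11 of 11 cytosolic and 4 of 6 mitochondrial ones had a fitted value above 0, beside 39 of 40 and 11 of 22 of all members. CACGTG, the E-box core bound by Myc and Max, was found in 4 of 30 cytosolic windows (Rpl13a, Rpl14, Rpl34 and Rps19) and in 0 of 18 mitochondrial windows, and in 8.09% of all. The core of the palindromic NRF1 site was found in 3 of 30 and in 3 of 18 windows, and in 5.19% of all. CACGTG reads the same on both strands. A pyrimidine run and the reverse complement of CCGGAAG can share bases at a start site.

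Summed over genes, the cytosolic members took 2.28% to 2.36% of all fragments on genes in the ID8 libraries and 2.71% to 2.86% in the KMF libraries. The means were 2.32 ± 0.0436% and 2.77 ± 0.0838% (SD, n = 3 each), which is 1.19-fold higher in KMF. For the mitochondrial members the mean share was 0.0967 ± 0.00116% in ID8 libraries against 0.0885 ± 0.00226% in KMF libraries (SD of 3 cultures), or 0.915-fold. Large and small subunits differed here, with 0.873-fold for the mitochondrial large subunit and 0.989-fold for the small one. Per gene, the median level was 633 FPKM for the cytosolic and 25.4 FPKM for the mitochondrial members, from the mean over the 6 libraries. On that mean the highest mitochondrial member, Mrps21, stood at 78.0 FPKM, while 37 of 40 cytosolic members exceeded 100 FPKM.

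**Figure D3:**
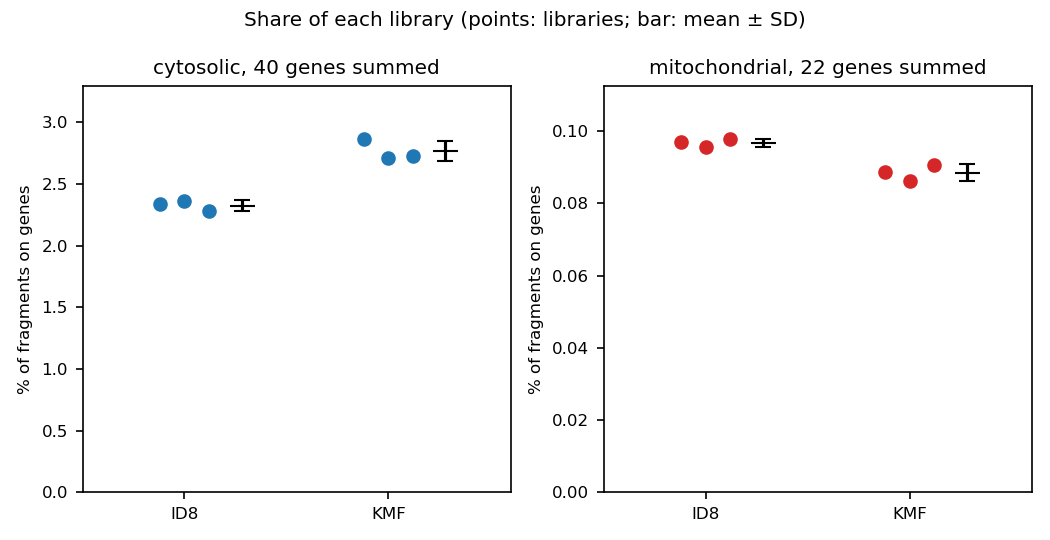
Percentage of all fragments on genes (vertical axis, from 0) taken by the 40 cytosolic and by the 22 mitochondrial members in each of the 3 ID8 and 3 KMF libraries (points), with the mean and SD beside them. The KMF libraries lie above the ID8 libraries for the cytosolic sum (2.77 against 2.32%) and below them for the mitochondrial sum (0.0885 against 0.0967%).

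The direction of the mitochondrial members differed by chromosome. Over the whole table the share of called genes that were higher in KMF differed between chromosomes, and members were set beside the other called genes of their chromosome, 48.7% of which were higher overall. On chromosome 3, where 74.5% of the other called genes were higher, Mrpl9, Mrpl47, Mrps28 and Mrps21 were all above 0 and the last 3 passed the test, as did the cytosolic Rpl34, Rpl22l1 and Rps3a1. On chromosome 11, with 27.4% higher, Mrpl38, Mrpl55 and Mrps23 were all lower. None of the 8 cytosolic genes annotated on chromosome 11 was listed. On chromosome 19, with 26.1% higher, Mrpl11, Mrpl49 and Mrpl16 were all lower, and on chromosome 8, with 33.9% higher, so were Mrpl34 and Mrps31.

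The listed cytosolic members did not divide in this way, but the share of cytosolic genes that was listed also differed by chromosome. Of those annotated, 2 of 9 were listed on chromosome 17 and 0 of 5 on chromosome 4, where under 50% were higher. On chromosomes 3 and 5 it was 3 of 4 and 4 of 5, though only 1 of 5 on chromosome 15. The counts below therefore cannot show how cytosolic genes as a whole relate to their chromosome. On chromosomes where over 50% of the other called genes were higher, 29 of 29 cytosolic and 8 of 10 mitochondrial members were above 0, the exceptions being Mrpl1 on chromosome 5 and Mrps6 on chromosome 16. On the remaining chromosomes 10 of 11 cytosolic members were also above 0, whereas 9 of 12 mitochondrial members were below 0. The 3 mitochondrial members above 0 there, Mrpl28, Mrpl18 and Mrps10, all lie on chromosome 17, where 48.4% were higher. Chromosome 7, with 60.9% higher, held 12 of the 14 cytosolic genes annotated there, all above 0 and 11 of them called higher. Gene dosage was not measured in these files, and its part in these values was not tested.

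**Figure D4:**
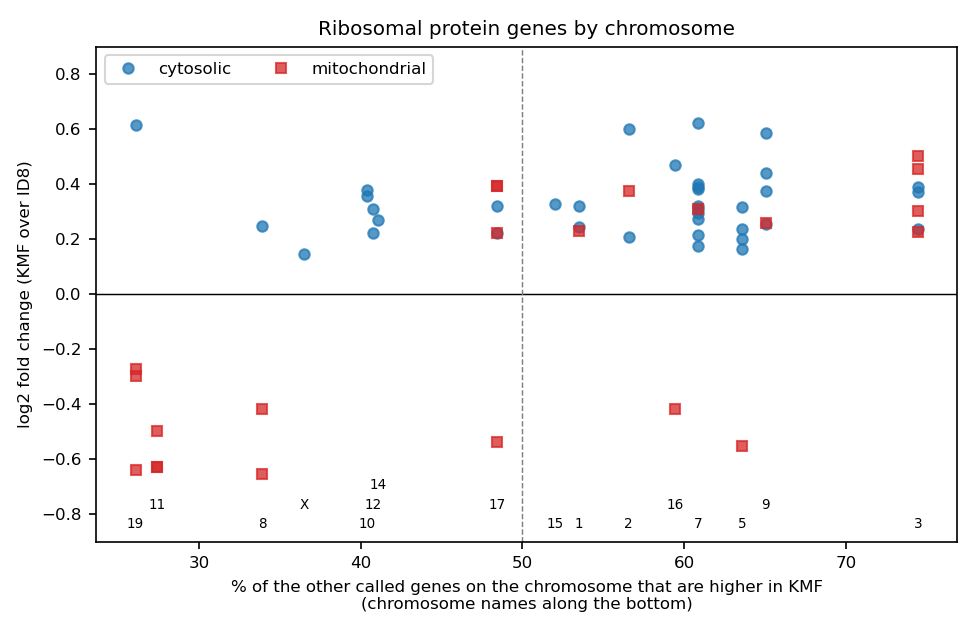
Log2 fold change of 59 of the 62 members (vertical axis, KMF over ID8) against the percentage of the other called genes on its chromosome that were higher in KMF (horizontal axis), with circles for cytosolic and squares for mitochondrial genes and chromosome names along the bottom. Left of the dashed line at 50%, 9 of 12 squares are below 0 and 10 of 10 circles above it, and right of it 8 of 10 squares and 27 of 27 circles are above 0.

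Ribosomal proteins whose symbols do not follow the family pattern moved down where they were listed. Fau, which encodes a small subunit protein fused to a ubiquitin-like domain, went from 893 ± 33.7 FPKM in ID8 to 709 ± 34.3 FPKM in KMF (mean ± SD of 3 cultures), a difference of -0.29 ± 0.08 log2 units (edgeR adjusted p = 0.0171), and lies on chromosome 19. It was the only one of 3 such cytosolic genes that was listed. Of 6 such mitochondrial genes 2 were listed, Gadd45gip1 on chromosome 8 with -0.55 ± 0.13 log2 units and Aurkaip1 on chromosome 4 with -0.31 ± 0.07 log2 units, both lower (edgeR adjusted p = 0.0114 and 0.0124).

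Other genes of ribosome production and translation are given as counts, to be read beside the 45.4% of all fitted genes that were higher and the 47.5% that were lower in the same edgeR test. For the small subunit processome, which cuts and folds the precursor rRNA, 12 of 30 genes were listed, of which 11 were higher and 1 lower (median log2 fold change 0.33). They ran from Rcl1 at -0.38 to Nol6 at 1.32, the latter from 18.9 ± 0.712 FPKM in ID8 to 46.0 ± 3.93 FPKM in KMF (mean ± SD of 3 cultures). For the proteins of small nucleolar ribonucleoproteins, which modify rRNA, 7 of 11 were listed, 6 higher and 1 lower (median 0.39), from Naf1 at -0.54 to Gar1 at 0.56. For large subunit assembly factors 25 of 49 were listed, 16 higher, 7 lower and 2 not called (median 0.28), from Senp3 at -0.64 to Eif6 at 0.53. For RNA polymerase I, which transcribes rRNA, 4 of 14 were listed, 3 higher and 1 lower, from its largest subunit Polr1a at -0.59 to Taf1d at 0.51.

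Of 40 initiation factor genes 13 were listed, 10 higher and 3 lower (median 0.35), from the helicase Eif4a2 at -0.67 to Eif4ebp1, a repressor of cap-dependent initiation, at 0.84. Of 14 elongation and release factor genes 6 were listed, 3 higher, 2 lower and 1 not called. The one with the highest change was Eef2k, the kinase that inhibits elongation factor 2, at 1.14 ± 0.09 log2 units (edgeR adjusted p = 7.5e-05), and the lowest was Eif5a2 at -0.44. Of 22 cytosolic aminoacyl-tRNA synthetase genes 12 were listed, 10 higher and 2 lower (median 0.38), from Farsa at -0.33 to Cars at 0.78.

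Of 25 assembly factor genes of the mitochondrial ribosome 4 were listed, 1 higher and 3 lower, from Nsun4 at -0.48 to Noa1 at 0.35. Of 11 mitochondrial translation factors 5 were listed, 2 higher, 2 lower and 1 not called, from Mtrf1 at -0.69 to Guf1 at 0.50. Of 17 mitochondrial aminoacyl-tRNA synthetases 8 were listed, 3 higher, 2 lower and 3 not called. Those called ran from Rars2 at -0.55 to Tars2 at 0.81, and a gene that was not called lay lower, at -0.58.

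Of 19 genes named as ribosomal S6 kinases or belonging to the mTORC1 pathway, a regulator of translation, 8 were listed, 2 higher and 6 lower (median -0.28), from Rps6ka2 at -1.72 to Rps6ka4 at 0.60. Mtor itself, named after its values were seen, went from 13.0 ± 1.38 FPKM in ID8 to 6.44 ± 0.844 FPKM in KMF (mean ± SD of 3 cultures), a difference of -0.97 ± 0.12 log2 units (edgeR adjusted p = 0.000492). Of 11 known transcriptional regulators of ribosomal and mitochondrial genes 8 were listed, 3 higher, 2 lower and 3 not called. Myc, a driver of ribosome production, went from 32.4 ± 7.77 FPKM in ID8 to 54.0 ± 5.36 FPKM in KMF (mean ± SD of 3 cultures), a difference of 0.78 ± 0.17 log2 units (edgeR adjusted p = 0.00848), and its relative Mycn went from 5.79 ± 1.44 FPKM in ID8 to 1.40 ± 0.586 FPKM in KMF (mean ± SD of 3 cultures), a difference of -2.02 ± 0.35 log2 units (edgeR adjusted p = 0.00281).

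The direction of all 62 members was the same in the 16 alternative settings, but the number that passed was not. These settings reused the libraries on which the listed genes had been selected, so a stable direction is no independent support. The setting that changed only the p adjustment could not alter a direction. The count of 32 cytosolic genes higher in KMF became 12 with upper quartile scaling, which shifted the median of all genes by -0.11, and 14 without ID8 replicate 1.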

How the data were processed

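Poly-A RNA of 3 ID8 and 3 KMF cultures was sequenced in pairs of reads (NEBNext Ultra libraries). The study's methods name TopHat2, and the submitters' processing notes list CASAVA 1.8, STAR 2.5, DESeq2 and mm10. The counter, annotation release and strand setting are not given in the sources used here. The authors deposited raw counts, FPKM values and gene length (other) per gene, the mean size-factor-scaled signal of each line, and their own log2 fold changes and p-values. These last were used only to see that every listed gene had an adjusted p-value under 0.05 and that 17359 genes had been tested, and their values are not printed.

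Library totals were recovered from counts, FPKM and length. Counts were fitted with edgeR 4.0.16 (R 4.3.3; TMM scaling on the listed genes, filterByExpr, quasi-likelihood test, two-sided, ID8 and KMF as groups), and p was adjusted by Benjamini-Hochberg over 17359 genes at a threshold of 0.05. The script was tested on simulated data in which 200 of 7320 genes changed by 1 log2 unit. It recovered 75.9% of them and called 5 unchanged genes. No member changed by that much, and far more genes were called in the data, so the simulation does not measure power for the members. Alternatives used DESeq2 1.42.0, limma 3.58.1 on log2(FPKM + 1), other scalings and filters, adjustment over the fitted genes alone, a replicate block and each library left out. Replicate libraries differed by more than counting noise (chi-square per degree of freedom 19.9 to 37.7), so none was taken for a copy. Levels of different genes were compared only in FPKM. Shared windows were runs of 150 bases in GENCODE M21 transcripts.

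The named genes were, in each subunit group, the 3 highest and 3 lowest called log2 fold changes, the 2 highest mean FPKM, every member not called, and listed paralog, stalk and laminin receptor genes. In each other list they were the highest and lowest called gene, and every gene where 3 or fewer were listed. Other members are named for a chromosome, motif or shared window. The members and lists were chosen with earlier results of these data known. A few of these genes entered every count and sum but are not reported here by name or drawn singly.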

Additional observations from a re-analysis of the deposited data

How the results depend on the processing

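In 16 alternatives no member changed direction, with 39 cytosolic genes above 0 and 1 below, and 11 mitochondrial genes on either side. The alternatives reused the libraries that had selected the listed genes, which makes a change of direction unlikely in advance. The 32 cytosolic genes called higher became 19 where every library had to reach 10 counts, 12 with upper quartile scaling, 20 with the replicate block, and 14 to 26 with a library left out. The 1 cytosolic gene called lower became 0 with the authors' size factors, with no filter and with the block, and 0 to 1 with a library left out. The 6 mitochondrial genes called higher ranged from 4 (upper quartile scaling, the 10-count filter, the block, and without ID8 replicate 1 or KMF replicate 3) to 9 (the authors' size factors, or no filter) and 11 when p was adjusted over the fitted genes alone. The 10 called lower ranged from 7 to 11 in all alternatives. The cytosolic median log2 fold change of 0.31 became 0.27 with library totals, 0.20 with upper quartile scaling, 0.26 with the 10-count filter, 0.27 with DESeq2, 0.27 with limma, and 0.27 to 0.35 with a library left out. The mitochondrial median of -0.02 became -0.0629 with library totals, -0.13 with upper quartile scaling, -0.0702 with the 10-count filter, -0.0625 with DESeq2, -0.062 with limma, and -0.0446 to 0.00803 with a library left out, where it turned positive only without KMF replicate 2. The summed cytosolic log2 ratio of 0.25 became 0.29 with TMM and 0.31 with the authors' size factors, and the mitochondrial one of -0.13 became -0.0889 and -0.0738. The cause was not tested.

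Of the 30 named members that passed, 17 kept their call in all 16 alternatives, and the other 13 lost it in at least 1, each of them also without some single library. Without ID8 replicate 1, edgeR adjusted p rose above the threshold for all 13 (among them Mrpl16, Mrpl48, Mrps31, Rpl34, Rpl36, Rpl36al, Rpl8, Rps13, Rps2 and Rps26), with Rps13 highest at 0.134. Same-numbered libraries had correlations of their deviations of 0.0740, -0.185 and 0.0588, so the numbers were not treated as pairs, and the replicate block lowered the count of all called genes from 6470 to 5720. The effect of depth was not tested. Rpl9-ps6 had the fewest counts of the cytosolic members, 67 to 120 per library, and a standard error of 0.21. With 3 cultures of 1 line each, the counts of passed genes rest on few degrees of freedom.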
